A study of Mus musculus with 8 samples.

Results

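The genes described here are 10 leukocyte adhesion molecules of the vessel wall: *Icam1*, *Icam2*, *Vcam1*, *Sele*, *Selp*, *Pecam1*, *F11r*, *Jam2*, *Jam3* and *Cd34*. They were taken from the arrays by name, as every spot that is not a control and whose printed gene name is one of the 10, whatever its signal. This gave 17 of the 56605 probes on the arrays and 10 of 37295 gene names. The RNA came from C57BL/6J mice of 12 weeks, males per the methods, in tissue that the labels call brown adipose tissue (BAT). The mice received 1 intravenous injection 18 h before the tissue was taken. The 4 Co mice received saline and the 4 Pg mice received sonicated *Porphyromonas gingivalis*, an oral bacterium of periodontal disease, in 100 μL of saline, and nothing else differs between the groups in the labels. The dose of the Pg group is printed as 108 CFU in the labels and is a power of 10 in the methods. Each mouse had 1 one-color Agilent array, and the question was how the injected bacterial material changed gene expression in this tissue.

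Leukocytes leave the blood in steps. Selectins on activated endothelium catch glycosylated ligands on passing cells and let them roll, immunoglobulin-type molecules (ICAMs and VCAM-1) then bind leukocyte integrins and hold the cells, and PECAM-1 and the junctional adhesion molecules (JAMs) sit at the endothelial junctions through which the cells pass. *Icam1*, *Vcam1* and *Sele* are classical targets of NF-κB in endothelium exposed to endotoxin or cytokines, whereas *Icam2* and *Pecam1* are known as constitutive endothelial genes. *Cd34* codes for a sialomucin of endothelium and of adipose stromal progenitor cells.

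All values are log2 signals after quantile normalization of the 8 arrays. A level can be compared between arrays for 1 probe but not between probes, because probes differ in their binding. A probe was tested when its signal was well above background on at least 4 arrays. Differences are Pg minus Co. They were tested two-sided with limma, and q is the Benjamini-Hochberg adjusted p over all 33820 probes tested. A differentially expressed gene (DEG) had a q below 0.1 and a fold change above 1.5, the thresholds of the methods. Over all probes, the median difference was -0.04, and 42.3% of the probes were higher in Pg mice.

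The arrays were on 1 slide, scanned once. Row 1 held all Co arrays and row 2 all Pg arrays, so slide row and group cannot be told apart. Between 34761 and 35831 probes per array were well above background in Co mice and between 31135 and 34066 in Pg mice. Of 12 brown adipocyte genes, *Ucp1*, *Elovl3*, *Slc27a2* and *Bmp8b* were well above background on no array, although *Ucp1* defines the tissue named in the labels, and the other 8, such as *Cidea*, were on all 8 arrays. All 12 skeletal muscle genes were detected. *Myh4* and *Actn3*, of fast muscle fibres, were lowest on Pg 1 (11.38 and 10.49) and Co 3 (13.38 and 11.78), against 14.38 to 17.07 and 13.08 to 14.01 on the other 6 arrays, and *Atp2a1* differed by -0.44 (limma q 0.0411). The part of muscle RNA in the results was not tested.

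The probes are 60 bases long, and their 3′ ends show which stretch of a transcript was read. The last 30 bases of 5 probes are given, those of the 2 DEGs, of *Pecam1*, whose fitted difference was below 0, and of the 2 *Cd34* probes, whose fitted differences had opposite signs without passing the test. Capitals mark AATAAA, the sequence of the signal for cleavage and polyadenylation. Whether these matches are used as such signals was not tested. Positions are those of the array's own annotation on the mouse build mm9, where no gene model of that build was used, so exons and UTRs were not assigned.
*Icam1*, position 2439 of its target, chr9:20833186-20833245, + strand: agaaacctttcctttgaatcAATAAAgttt
*Icam2*, position 1081, chr11:106238971-106239030, - strand: ttttagcctcaatacaaatatctggatttc
*Pecam1*, position 2242, chr11:106540864-106540923, - strand: gtggaagtgtcctcccttgagcctcaccaa
*Cd34*, position 2370, chr1:196787392-196787451, + strand: tctgAATAAAcgtgatgagtgaaaatgatg
*Cd34*, position 963, chr1:196785280-196785339, + strand: ttcccgaaagactcttattgcattggtcac

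The promoter of *Icam1* is given because this gene is a known NF-κB and STAT target and was one of the 2 DEGs. It is the stretch of 300 bases around the annotated start, most of it upstream, at chr9:21015690-21015989 of GRCm38.p6, + strand, from RefSeq. Capitals mark GGAAATTCC, a κB motif whose first base lies 153 bases before the start, and a match to TTCCNGGAA, a STAT motif 42 bases before the start.
*Icam1* promoter: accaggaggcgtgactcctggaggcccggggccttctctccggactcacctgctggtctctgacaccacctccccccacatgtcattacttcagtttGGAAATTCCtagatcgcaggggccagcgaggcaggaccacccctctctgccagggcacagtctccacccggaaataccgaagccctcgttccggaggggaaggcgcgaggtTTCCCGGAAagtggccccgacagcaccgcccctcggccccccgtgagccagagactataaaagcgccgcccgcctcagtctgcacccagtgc

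On either strand, GGAAATTCC was found in 0.317% of 32851 RefSeq promoters of the same length and TTCCNGGAA in 1.15%. The general NF-κB consensus, a wider motif that was searched by itself, had no match in the *Icam1* window and was found in 4.51% of promoters. TATAAA, the TATA box, lay 13 bases after the annotated start of *Icam1* and was found in 13.6% of promoters, and GGGCGG, the GC box, lay on the other strand of the window 17 bases before and 23 bases after the start and was found in 35.7% of promoters. Promoters of 5 of the 10 genes were in the RefSeq table. *Sele* held TATAAA 49 bases before its start, and TGANTCA, an AP-1 motif found in 7.81% of promoters, stood before the starts of *Sele*, *Selp* and *F11r*. None of the 6 motifs searched was found in the *Cd34* window. *Vcam1*, *Icam2*, *Pecam1*, *Jam2* and *Jam3* were not in the table.

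Of the 17 probes, 12 probes of 9 genes were tested. *Icam1* and *Icam2* rose in Pg mice and were the only DEGs among the 12, and no probe of the 10 genes was a DEG in the other direction. Over all probes, 1.61% were DEGs, 0.313% higher and 1.3% lower. That balance depended on the processing: 106 of 546 DEGs were higher as reported, and 66 of 94 with normexp background correction, 75 of 108 with the median signal, 137 of 283 with scaling to the 75th percentile, 20 of 27 without normalization, 107 of 318 when a probe had to be well above background on all 8 arrays and 60 of 106 with the authors' normalized columns. Of the 12 probes, 10 had a fitted difference above 0, 6 had an unadjusted limma p below 0.05 (22.8% of all probes did) and 2 had a q below 0.1 (7.82% of all). The groups did not overlap for *Icam2*, which was higher, and for *Pecam1*, which was lower. Over all probes this held for 15.8%, 4.83% higher and 11% lower. The set is small, and these counts are given as a description.

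**Figure D1:**
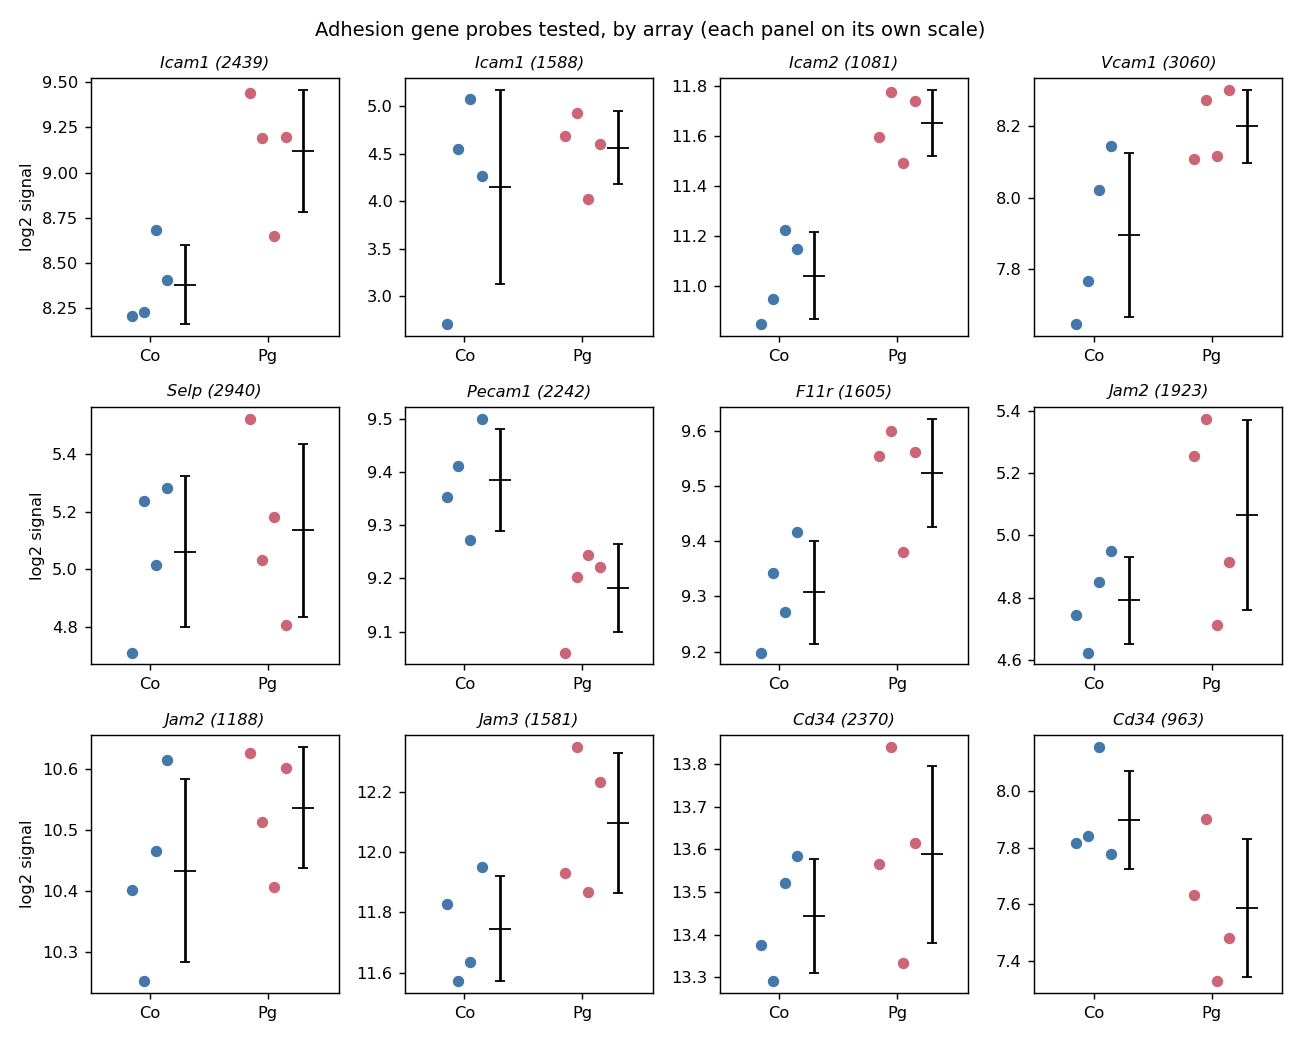
Log2 signal of the 12 tested adhesion gene probes on each array (points, Co blue and Pg red, in array order 1 to 4), with the group mean and SD (bars); the number after a gene is the probe's position in its target and each panel has its own scale. *Icam2* and *Pecam1* are the 2 probes whose groups do not overlap, and the *Icam1* probe at position 2439 overlaps only through Co 3 and Pg 3.

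*Icam1* codes for ICAM-1, the endothelial ligand of the leukocyte integrins LFA-1 and Mac-1. Its probe at position 2439 read 8.21, 8.22, 8.68 and 8.40 in Co mice and 9.44, 9.19, 8.65 and 9.20 in Pg mice. Pg 1, Pg 2 and Pg 4 lay above every Co array, whereas Pg 3 lay 0.03 below Co 3, so the groups overlapped. The mean was 8.38 ± 0.22 in Co mice and 9.12 ± 0.34 in Pg mice (SD, n = 4 each). The difference was 0.74 (95% interval 0.32 to 1.16, SE 0.18), a 1.67-fold rise with a limma q of 0.0755. It was larger than the difference of 98.7% of all probes tested.

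This call depended on single arrays. Without Pg 3 the difference was 0.90 with a limma q of 0.0513, and without any other single array (Co 1, Co 2, Co 3, Co 4, Pg 1, Pg 2 or Pg 4) the q lay between 0.12 and 0.163 and the difference between 0.63 and 0.84, so that *Icam1* was a DEG in 1 of 8 such fits.

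A 2nd *Icam1* probe lies upstream on the genome, at position 1588 of another target sequence, chr9:20832290-20832349 of mm9. It was dim, well above background on 3 Co and 2 Pg arrays. It read 2.70, 4.56, 5.08 and 4.26 in Co mice and 4.69, 4.93, 4.03 and 4.60 in Pg mice. Co 1 lay far below the other arrays and the groups overlapped widely. The difference was 0.41 with a 95% interval of -0.70 to 1.52 and a limma q of 0.642, an interval that holds 0 as well as the difference of the brighter probe, and without Co 1 it was -0.07. It was 0.032 with normexp and 0.57 without normalization.

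*Icam2* codes for ICAM-2, a constitutive endothelial and platelet ligand of LFA-1. Its probe at position 1081 read 10.85, 10.95, 11.22 and 11.15 in Co mice and 11.60, 11.78, 11.49 and 11.74 in Pg mice. Every Pg array lay above every Co array, by at least 0.27. The mean was 11.04 ± 0.17 in Co mice and 11.65 ± 0.13 in Pg mice, that is a difference of 0.61 (95% interval 0.37 to 0.85, SE 0.11). The rise was 1.52-fold with a limma q of 0.0494, close to the fold change of 1.5 that a DEG needed.

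With 1 array left out, *Icam2* stayed a DEG without Co 4, Pg 1 or Pg 3. Without Co 1, Pg 2 or Pg 4 the limma q stayed below 0.1 (0.0864 to 0.096) but the difference of 0.54 to 0.58 fell short of the fold change needed. Without Co 2 or Co 3 the q was 0.115 and 0.107. The other *Icam2* probe, at position 503 of another transcript, was well above background on no array and was not tested.

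*Vcam1* codes for VCAM-1, the endothelial ligand of the integrin VLA-4. Its probe at position 3060 (chr3:115813216-115813275 of mm9, - strand) read 7.64, 7.76, 8.02 and 8.15 in Co mice and 8.11, 8.27, 8.12 and 8.30 in Pg mice. Co 4 lay above Pg 1 and Pg 3, so the groups overlapped, and the Co arrays were spread over 0.50 against 0.19 for the Pg arrays. The difference was 0.31 (95% interval 0.03 to 0.58) with a limma q of 0.181, and *Vcam1* was not a DEG. The upper end of the interval lies just short of a 1.5-fold change. Its probe at position 842 was well above background on 1 Co array and no Pg array, and was not tested.

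The selectins were at or near background. *Sele* codes for E-selectin, which endothelium makes only after activation, and its 1 probe (position 2829, chr1:165987726-165987785 of mm9) was well above background on none of the 8 arrays, with log2 signals of 1.91 to 1.94. The lowest signal that counted as well above background was between 3.57 and 4.36 on the 8 arrays, so *Sele* has only an upper bound in both groups and no fold change is given. *Selp* codes for P-selectin, which is stored in endothelial cells and platelets. Its probe at position 2940 (chr1:166079660-166079719 of mm9) was well above background on all arrays and read 4.71, 5.24, 5.01 and 5.28 in Co mice and 5.52, 5.03, 5.18 and 4.80 in Pg mice. The groups overlapped, and Pg 1 lay 0.24 above the highest Co array. The difference was 0.07 (95% interval -0.34 to 0.49, limma q 0.835), and the interval stops short of a 1.5-fold change in either direction. The direction turned without Co 1 (-0.04) and without Pg 1 (-0.06), and it was 0.26 without normalization. The other 2 *Selp* probes, at positions 2053 and 1717, were well above background on 2 and 1 Co arrays and on no Pg array, and were not tested.

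*Pecam1*, also known as CD31, codes for a homophilic molecule of endothelial junctions that also sits on platelets and leukocytes. It was the only gene of the 9 tested whose brightest probe was lower in Pg mice. It read 9.35, 9.41, 9.27 and 9.50 in Co mice and 9.06, 9.20, 9.24 and 9.22 in Pg mice. Every Pg array lay below every Co array, with a gap of 0.03 between Co 3 and Pg 3. The mean was 9.38 ± 0.10 in Co mice and 9.18 ± 0.08 in Pg mice, that is a difference of -0.20 (95% interval -0.37 to -0.04). The limma q was 0.151 and *Pecam1* was not a DEG. Among all probes, groups were separated in this direction for 11%.

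*F11r* codes for JAM-A, a ligand of LFA-1 at endothelial and epithelial tight junctions. Its probe at position 1605 (chr1:173393848-173393907 of mm9) read 9.20, 9.34, 9.27 and 9.42 in Co mice and 9.55, 9.60, 9.38 and 9.56 in Pg mice. Only Pg 3 lay within the range of the Co arrays. The difference was 0.22 (95% interval 0.05 to 0.39) with a limma q of 0.143, and the interval excludes a 1.5-fold change.

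*Jam3* codes for JAM-C, which binds Mac-1 and JAM-B. Its probe at position 1581 (chr9:26905298-26905357 of mm9, - strand) read 11.83, 11.57, 11.63 and 11.95 in Co mice and 11.93, 12.35, 11.87 and 12.23 in Pg mice. Pg 2 and Pg 4 lay above all Co arrays, and Pg 1 and Pg 3 lay below Co 4. The difference was 0.35 (95% interval 0.04 to 0.66) with a limma q of 0.179.

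*Jam2* codes for JAM-B, the partner of JAM-C. The brighter of its 2 probes, at position 1188, covers 1544 bases of the genome with its 60 bases (chr16:84821508-84823051 of mm9) and so joins separate genomic blocks. It read 10.40, 10.25, 10.47 and 10.62 in Co mice and 10.63, 10.51, 10.41 and 10.60 in Pg mice. The groups overlapped, with a difference of 0.10 (95% interval -0.11 to 0.31, limma q 0.534). The dim probe at position 1923 (chr16:84811166-84811225 of mm9), well above background on 4 Co and 3 Pg arrays, read 4.74, 4.62, 4.85 and 4.95 in Co mice and 5.26, 5.38, 4.71 and 4.91 in Pg mice. Pg 1 and Pg 2 were above all Co arrays while Pg 3 and Pg 4 were within their range, and the difference was 0.27 (95% interval -0.08 to 0.63, limma q 0.329). It was 0.10 with normexp, 0.47 without normalization and 0.17 without Pg 2.

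*Cd34* was read by 2 probes. The one at position 2370 read 13.38, 13.29, 13.52 and 13.58 in Co mice and 13.57, 13.84, 13.33 and 13.62 in Pg mice, that is a difference of 0.15 (95% interval -0.12 to 0.42, limma q 0.497), which turned to -0.047 in the authors' normalized columns. The one at position 963 read 7.82, 7.84, 8.16 and 7.78 in Co mice and 7.63, 7.90, 7.33 and 7.48 in Pg mice, that is a difference of -0.31 (95% interval -0.63 to 0.01, limma q 0.23). Within each probe the groups overlapped.

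The 2 *Cd34* probes were then set against each other within each array, a comparison prompted by their values and so given without a test, and the same was done for the other genes with 2 tested probes. The difference between the *Cd34* probes was 0.46 larger in Pg mice than in Co mice, and every Pg array lay above every Co array. For *Icam1* (position 2439 minus 1588) and *Jam2* (position 1923 minus 1188) the signed difference was 0.33 and 0.17 higher in Pg mice, with overlap. Those depended on the processing, as the *Icam1* value ran from 0.22 (75th percentile or no normalization) to 0.64 (normexp) and from 0.12 without Co 3 to 0.75 without Co 1. That of *Jam2* ran from 0.034 (normexp) to 0.35 (75th percentile or no normalization) and from 0.059 without Pg 2 to 0.24 without Pg 3. The dim *Icam1* probe was not well above background on every array. For *Icam1* and for *Jam2*, the 2 probes have different target sequences in the array's annotation, so their comparison may not be within 1 transcript. Which *Cd34* transcripts each probe reads was not tested.

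**Figure D2:**
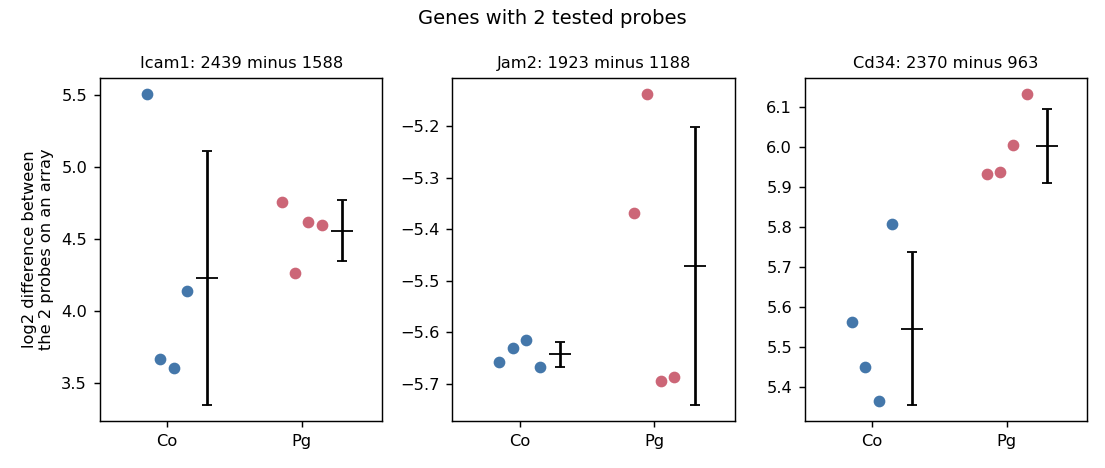
Difference in log2 signal between the 2 tested probes of *Icam1*, *Jam2* and *Cd34* on each array (points, Co blue and Pg red), with the group mean and SD (bars). Only for *Cd34* do all 4 Pg arrays lie above all 4 Co arrays, by a mean of 0.46.

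**Figure D3:**
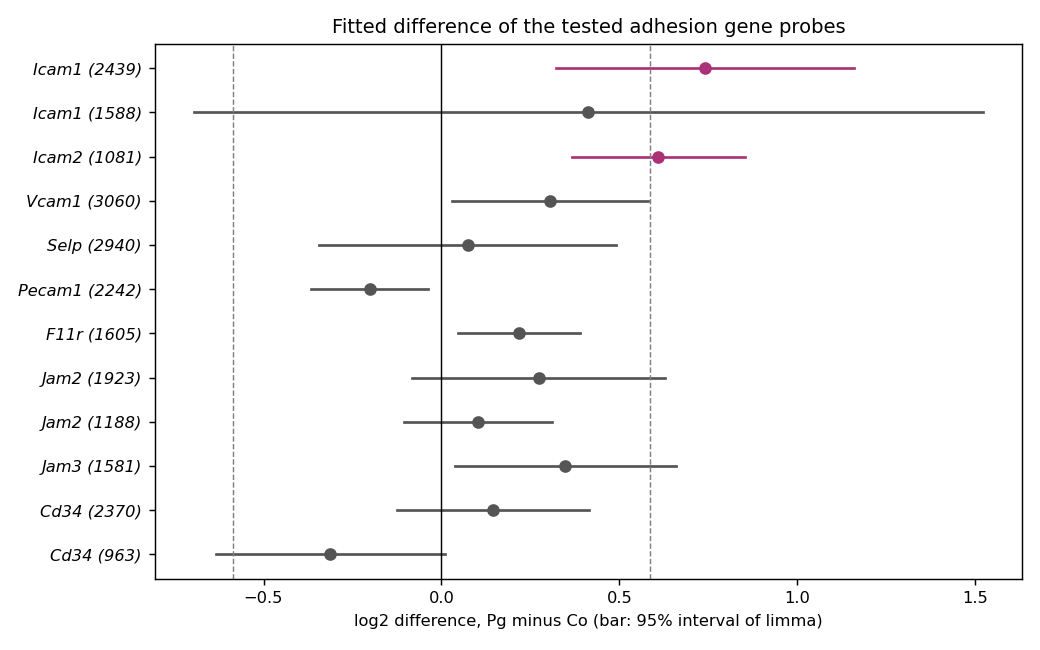
Fitted log2 difference, Pg minus Co, of the 12 tested adhesion gene probes (points) with limma's 95% interval (bars). The broken lines mark a fold change of 1.5 in either direction, and the 2 DEGs, *Icam1* at position 2439 (0.74) and *Icam2* at position 1081 (0.61), are in colour; the interval of *Pecam1* lies below 0.

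One array recurred in these values. Pg 3 was the lowest of the 4 Pg arrays for 9 of the 12 tested probes, whereas it was the lowest for 23.7% of all probes. Pg 2 was the highest Pg array for 7 of the 12 probes (23.3% of all probes). In the Co group, Co 4 was the highest for 8 of the 12 (26.5% of all probes) and Co 1 the lowest for 6 (26.6% of all). The probes share these libraries, so the 12 counts are not independent of each other.

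In bulk tissue, a change in the number of endothelial cells and a change in the RNA of each cell cannot be told apart, so the adhesion genes were also read against 15 endothelial markers, which do not include any of the 10 genes. All 15 were tested and none was a DEG, with 12 higher and 3 lower in Pg mice and a median difference of 0.10. The 2 with a limma q below 0.1 were *Kdr*, a VEGF receptor (0.57, q 0.0573), and *Egfl7*, an endothelial secreted factor (0.42, q 0.0419), and in both the groups did not overlap. The summed signal of the 15 was 47110 to 55203 in Co mice and 57859 to 60641 in Pg mice, without overlap, while their mean log2 signal overlapped (10.86 to 11.08 in Co mice and 11.03 to 11.09 in Pg mice). No endothelial marker was missing on the arrays. The part of these markers in the change of the adhesion genes was measured only by the ratio that follows.

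After the mean log2 signal of the 15 markers on the same array was subtracted, *Icam2* remained 0.48 higher in Pg mice without overlap (exact permutation test over 8 arrays, two-sided, p = 0.0286, adjusted p = 0.171 over 12 probes). *Icam1* at position 2439 was 0.61 higher with overlap (exact permutation p = 0.0571, adjusted p = 0.171). *Pecam1* was 0.33 lower without overlap (difference -0.33, exact permutation p = 0.0286, adjusted p = 0.171) and *Cd34* at position 963 differed by -0.44 (exact permutation p = 0.0571, adjusted p = 0.171). The other 8 probes lay between -0.06 and 0.28. With 12 probes and a smallest p of 0.0286, no probe passed an adjusted p of 0.1.

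The leukocyte partners of these molecules were counted next. The 11 genes are mostly the integrin chains that bind ICAMs, VCAM-1 and JAMs and the sialomucins that selectins hold. All 11 were tested and none was a DEG, with 9 higher and 2 lower and a median of 0.27, against -0.01 over all 22438 genes, of which 47.2% were higher and 1.19% were DEGs. *Itgal*, the α chain of LFA-1, had the largest difference (0.73, limma q 0.596), and its Pg arrays read 9.43, 6.21, 5.70 and 6.38 against 6.05 to 6.33 in Co mice, so that Pg 1 alone was far above the rest, and without Pg 1 the difference was -0.10. *Selplg*, the P-selectin ligand PSGL-1, differed by 0.65 (q 0.459) and *Itga4*, the α chain of VLA-4, by 0.49 (q 0.514). *Itgb2*, the β chain shared by LFA-1 and Mac-1, differed by 0.27 (q 0.615), *Itgam*, the α chain of Mac-1, by -0.05 (q 0.717) and *Itgb1*, the β chain of VLA-4, by 0.11 (q 0.32).

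Of 8 enzymes that build selectin ligands, 6 were tested. None was a DEG, and all 6 lay below 0, with a median of -0.24 and differences of -0.31 for *Chst2*, -0.29 for *St3gal6* and -0.27 for *Gcnt1* (limma q 0.304, 0.131 and 0.61). *Chst2* codes for a sulfotransferase, *St3gal6* for a sialyltransferase and *Gcnt1* for a branching enzyme of O-glycans. *Chst2* and *Gcnt1* were well above background on 4 Co but only 2 Pg arrays and so met the filter more readily where they were higher. The fucosyltransferases *Fut4* and *Fut7* were well above background on too few arrays to be tested.

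Among 18 other adhesion and junction genes of endothelium, 15 were tested and none was a DEG, with 10 higher and 5 lower and a median of 0.06. *Alcam*, an immunoglobulin-type molecule that binds CD6, differed by 0.54 (limma q 0.146, groups separated), *Cldn5*, the endothelial claudin, by 0.41 (q 0.283) and *Icam5*, a neuronal ICAM well above background on 4 Co and only 2 Pg arrays, by -0.33 (q 0.521). *Cdh5*, the VE-cadherin of adherens junctions, differed by 0.13 (q 0.539) and *Icam4* by 0.01 (q 0.984). *Mcam*, or CD146, had a q of 0.0599 and read 13.66 to 13.74 in Co mice and 13.43 to 13.52 in Pg mice, with separated groups and a difference of -0.25. *Cdh5*, *Esam*, *Emcn* and *Cldn5* are also among the endothelial markers. Of 9 genes for cytoskeletal anchors and sheddases of adhesion molecules, all were tested and none was a DEG, with 6 higher and 3 lower and a median of 0.07. The differences of largest size were 0.17 for *Cttn*, 0.13 for *Actn4* and -0.13 for *Ezr*, and another probe of *Cttn* lay at -0.60.

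The 18 genes of the NF-κB response were all tested. *Tnfaip3*, which codes for the feedback inhibitor A20, was the 1 DEG. It read 6.83, 6.76, 7.03 and 7.28 in Co mice and 7.86, 7.62, 7.66 and 7.56 in Pg mice. Every Pg array lay above every Co array, and the gene rose by 0.70 (95% interval 0.41 to 0.99, limma q 0.0509). It was no longer a DEG without Co 2 (q 0.115) or without Co 3 (q 0.113), nor with normexp, with the median signal or without normalization. Of the 18, 12 were higher and 6 lower, with a median of 0.27. An unadjusted limma p below 0.05 was found for 7, against 4564 of all 22438 genes. Among these 7, *Birc3* was lower (-0.38, limma q 0.104) while another of its probes lay at 1.20. *Irf1* was higher (0.22, q 0.209) while another of its probes lay at -0.35. *Rela*, a subunit of NF-κB, was 0.29 higher with a q of 0.093, while the other differences of largest size did not pass, with 1.57 for the chemokine gene *Cxcl1* (q 0.122), -0.99 for *Tnfaip2* (q 0.568) and 0.78 for *Bcl3* (q 0.149). The value of *Tnfaip2* came from Co 4, which read 14.42 against 10.06 to 10.20 on the other Co arrays and 10.15 to 10.30 in Pg mice, and without Co 4 it was 0.09. The groups were separated upwards for *Tnfaip3*, *Rela*, *Relb* and *Cxcl1*, that is 4 of 18 genes against 5.77% of all genes, although dimmer probes of *Rela* and *Relb* lay at -0.20 and -0.16.

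**Figure D4:**
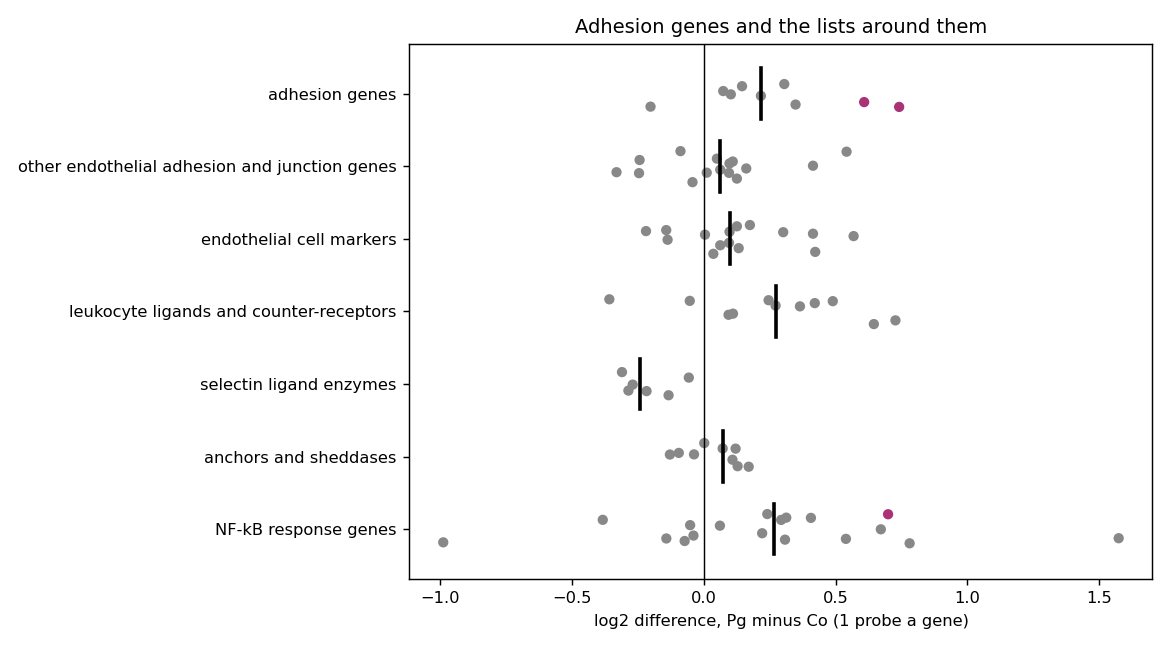
Log2 difference, Pg minus Co, of each tested gene (points, 1 probe a gene) in the adhesion genes and in 6 lists around them, with the list median (vertical bars). DEGs are in colour, *Icam1* and *Icam2* among the adhesion genes and *Tnfaip3* among the NF-κB response genes; the medians run from -0.24 for the selectin ligand enzymes to 0.27 for the leukocyte ligands and the NF-κB response genes.

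Markers of other cells that carry these molecules were read beside them, and their part in the results was not tested. Of 11 neutrophil genes, 8 were tested and 7 were higher, with a median of 0.19, summed signals of 40738 to 50910 in Co mice and 48510 to 55558 in Pg mice, and no DEG. *Csf3r* alone made up 94% to 97.8% of that sum. The other sums also rest on few probes, as *Ly6c2* made up 63.3% to 82.5% of the monocyte and macrophage sum, *Pf4* 80.9% to 92.2% of the platelet sum, *Dcn* 58.7% to 71.6% of the stromal sum, *Cd4* 48.6% to 65.7% of the T and B cell sum and *Egfl7* 30% to 36.7% of the endothelial sum. *S100a8* and *S100a9*, the calgranulins, differed most, by 2.16 (limma q 0.132) and 2.04 (q 0.195), with *S100a8* at 4.56 to 5.33 in Co mice and at 8.59, 8.32, 5.18 and 6.76 in Pg mice, so that Pg 3 lay within the Co range. *Ltf* was well above background on no array, *Csf3r* differed by 0.24 (q 0.181) and *Ly6g* by 0.09. Of 10 monocyte and macrophage genes, 9 were tested, 6 were higher and none was a DEG (median 0.36), and the summed signal was 58362 to 63981 in Co mice and 56090 to 75733 in Pg mice. Their differences included 0.85 for *Ccr2* and 0.60 for *Lyz2* (q 0.472 and 0.464).

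Of 9 T and B cell genes, 6 were tested, and *Cd79b*, of the B cell receptor, was a DEG (1.69, limma q 0.0867). It stayed one without Pg 4 (q 0.0809) and not without Co 1, Co 2, Co 3, Co 4, Pg 1, Pg 2 or Pg 3 (q 0.112 to 0.169). *Ms4a1*, the CD20 gene of B cells, differed by 0.17 (q 0.707). The summed signal was 1730.7 to 1869.6 in Co mice and 1830.4 to 2072.6 in Pg mice. Of 7 platelet genes, a second source of *Selp*, *Icam2* and *Pecam1*, 6 were tested, 4 higher and 2 lower (median 0.10), with no DEG. Their summed signal was 1669.5 to 2743.3 in Co mice and 1330.9 to 2854.6 in Pg mice, and *Itga2b*, the α chain of the platelet fibrinogen receptor, was well above background on 4 Co arrays and no Pg array, so that it passed the filter through Co mice alone and has only a bound in Pg mice. *Gp9* differed by -0.46 and *Gp6* by 0.39. For the 7 genes of fibroblasts and adipose stroma, cells that also carry *Cd34* and *Vcam1*, 4 were higher and 3 lower (median 0.07), and the summed signals of 74227 to 107980 in Co mice and 78253 to 107190 in Pg mice overlapped. The 6 pericyte genes had a median of -0.01 and the 6 lymphatic endothelial genes a median of 0.14, with no DEG in either.

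The genes whose values followed those of *Icam1* most closely over the 8 arrays were sought among 22437 other genes. The highest Pearson r with the probe at position 2439 was 0.994, for *Sting1*, which codes for the adaptor of cytosolic DNA sensing. It was followed by *Ccnd2*, a cyclin (0.989), *Tm4sf1*, a tetraspanin-like membrane protein of endothelium (0.986), *Kdr* (0.984) and *Pdlim4*, a LIM domain protein (0.98). After each group's mean was subtracted, the r values were 0.981, 0.965, 0.955, 0.962 and 0.939, which come from the same values that chose these genes. Their differences were 0.55, 0.40, 0.44, 0.57 and 0.31, and none reached a fold change of 1.5. Among the other adhesion gene probes, *Icam2* at position 1081 had an r of 0.91 with *Icam1* (0.68 within groups) and *Pecam1* an r of -0.87 (-0.61 within groups). These correlations describe 8 libraries from the same slide and carry no test.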

How the data were processed

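Total RNA of 4 Co and 4 Pg mice was hybridized to Agilent one-color arrays, 1 array a mouse. The authors deposited the spot intensity of each array from Feature Extraction 11.0.1.1, background-subtracted and not normalized between arrays, and a table of their own quantile-normalized log2 values, used only as an alternative. Its fold changes and p-values, the authors' comparison, were not used. Groups came from the sample labels.

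The processed signals of the 59305 non-control spots, without population outliers (90 to 150 per array), were averaged per probe (56605 probes), quantile-normalized, raised to at least 1 and log2-transformed with limma 3.58.1 in R 4.3.3 (data.table, version 1.17.8). The 33820 probes well above background on 4 of 8 arrays or more were tested with lmFit and eBayes, two-sided, with Benjamini-Hochberg adjustment. The fit was tested on simulated data. An exact permutation test of 4 against 4 arrays cannot go below 0.0286. The number of arrays limits the precision.

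A gene in a list was read by its brightest probe. The members and lists were chosen with earlier results of these data known. Named were all 10 members, the DEGs and the 3 largest differences of each list, ligands of a member, and the 5 genes most like *Icam1*. Other genes with a q below 0.1, and *Relb*, *Birc3*, *Irf1*, *Cdh5*, *Icam4*, *Myh4*, *Actn3*, *Cidea*, *Csf3r*, *Ly6c2*, *Pf4*, *Dcn*, *Cd4*, *Ly6g*, *Ltf*, *Fut4* and *Fut7*, were named after their values were seen. Some genes of the lists are counted but not reported by name here. Alternatives were normexp with an offset of 50, the median signal, scaling to the 75th percentile, no normalization, other filters, outlier spots kept, the authors' log2 columns, other eBayes settings, stromal markers as reference, a replicate block and each array left out. The probe-pair comparison and its alternatives were added after seeing the data.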

Additional observations from a re-analysis of the deposited data

How the results depend on the processing

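Of 212 fits of single probes under the alternatives, 208 kept their direction. The exceptions were *Cd34* at position 2370 with the authors' log2 columns (-0.047), *Icam1* at position 1588 (-0.069 to 0.72 with 1 array left out) and *Selp* (-0.055 to 0.18). *Icam1* at position 2439 ranged from 0.67 to 0.80 over 10 settings and *Icam2* from 0.58 to 0.64, and each was a DEG in 7. Over the settings that kept the probe, *Selp* ranged from 0.023 to 0.26, *Cd34* at position 963 from -0.31 to -0.19, *Jam2* at position 1923 from 0.10 to 0.47 and *Icam1* at position 1588 from 0.032 to 0.57. Of the 12 probes, 2 were DEGs as reported, 1 with the 75th percentile (*Icam1*, since *Icam2* had 0.58), 0 without normalization, 1 without a filter (*Icam2*), 0 with the replicate block and 0 to 2 with 1 array left out. In the 5 pathway lists (ligands, enzymes, junctions, anchors and NF-κB response), genes called higher were 0 under normexp, the median signal, no normalization and the replicate block, against 1 as reported (*Tnfaip3*), and 0 to 3 with 1 array left out (3 without Pg 3). No gene of these 5 lists was called lower in those fits, without a filter, with the 75th percentile or with 1 array left out, and the other alternatives were not run for lists. The cell type lists were not counted here. Over all probes the DEGs numbered 546, and 94 with normexp, 108 with the median signal, 283 with the 75th percentile, 27 without normalization, 372 without a filter, 318 with the stricter filter, 106 with the authors' columns and 3 without Co 3. The cause of these changes was not tested.

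Relative to the endothelial markers, 13 of 156 values turned direction. *Icam1* at position 1588 was -0.093 with normexp, -0.057 with the median signal and -0.17 to 0.60 with 1 array left out. *Jam2* at position 1923 was -0.022 with normexp, and at position 1188 it was 0.030 against stromal markers and -0.070 to 0.0098 with 1 array left out. *Selp* was 0.11 with the 75th percentile and without normalization, 0.0012 against stromal markers and -0.19 to 0.062 with 1 array left out, and *Cd34* at position 2370 was -0.059 to 0.094. The difference between the *Cd34* probes was 0.32 to 0.39 under 4 settings.

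Same-numbered arrays shared a slide column only. Their deviations from the group means correlated at 0.06, -0.03, -0.07 and 0.18. So few values cannot settle whether the numbers pair the mice. With the replicate block, no probe of all 33820 was a DEG, and the limma q was 0.176 for *Icam1* and 0.122 for *Icam2*, while 2 of the 4 Co arrays were most like the Pg array of their own number.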
